A study of Homo sapiens with 6 samples.

Results

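The bypass receptor tyrosine kinases are 10 genes for receptors outside the ERBB family, MET, AXL, MERTK, TYRO3, FGFR1, FGFR2, FGFR3, FGFR4, RET and ROS1, that have been linked to resistance to EGFR inhibitors. They were taken by symbol from a table of 28395 genes, in which all 10 were found. The RNA-seq data comprised 6 libraries from HCC827, an established human lung adenocarcinoma cell line with an activating EGFR mutation. The cells received the vehicle DMSO in 3 libraries (numbered 1 to 3) and 1 μM erlotinib, a small molecule that blocks the EGFR kinase, in the other 3 (numbered 4 to 6 in the table), for 24 h. The libraries held between 20760204 and 24641819 reads on genes. Values are given as signal, the reads of a gene divided by a size factor of its library. They measure mRNA and not receptor protein or its phosphorylation. Each value is an average over the culture, so fewer cells that express a gene and less RNA per cell cannot be told apart.

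Receptor tyrosine kinases bind a ligand outside the cell, pair up, phosphorylate each other and recruit adaptors that feed RAS and ERK signaling and PI3K and AKT signaling. Because MET, AXL and the FGF receptors feed the same adaptors as EGFR, their activity can keep these cascades on when EGFR is blocked, which is why they are called bypass receptors. In lung adenocarcinoma, MET amplification and AXL expression are known routes to resistance, and RET and ROS1 act as oncogenes when fused to other genes.

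With erlotinib, 5 of the 10 genes were lower (MET, AXL, TYRO3, FGFR1 and FGFR4), 2 were higher (FGFR3 and ROS1), MERTK was neither, and FGFR2 and RET lay under the filter on low signal. The largest falls were those of AXL and FGFR1, to 0.359 and 0.362 of the DMSO mean, and the larger rise was that of ROS1, which was 6.10-fold higher from a few reads per library. Differences were tested with limma on log2(signal + 1) in the 14215 genes whose mean signal reached 10, with p-values adjusted by Benjamini-Hochberg and called under 0.05. Calls were common in this comparison, with 35.4% of all tested genes lower, 35.3% higher and 70.7% called in either direction. The libraries of MET, AXL, TYRO3, FGFR1 and FGFR4 did not overlap between the groups on the lower side, as for 36.9% of all tested genes, and those of FGFR3 and ROS1 on the higher side, as for 36.7%. The median log2 fold change of the 8 tested receptor genes was -0.39, beside 0.02 for all tested genes. ROS1 was among the tested genes only through its erlotinib libraries, since its DMSO mean lay under 10. AXL is among the genes that the study itself picked from these libraries, as are FGF2 and DUSP6, so their falls are not independent evidence.

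**Figure D1:**
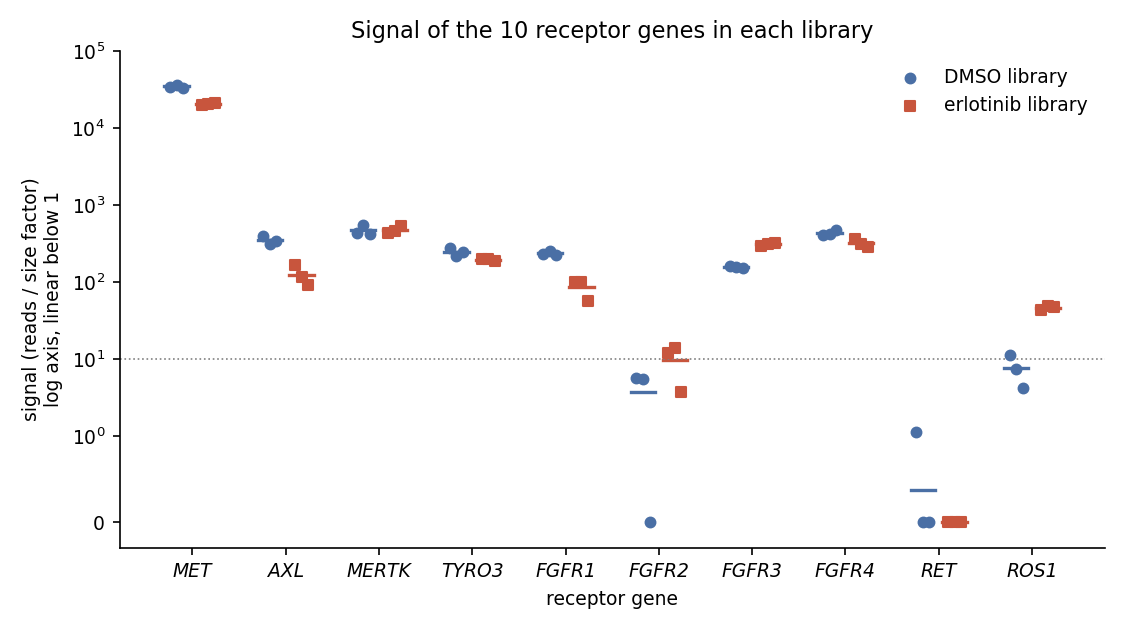
Signal of each receptor gene (reads divided by the size factor, log axis that is linear below 1) in the 3 DMSO libraries (circles) and the 3 erlotinib libraries (squares), with short lines at the group means and a dotted line at the mean signal of 10 needed for testing. MET stands far above the other 9 genes in all 6 libraries, and RET has a single read in 1 DMSO library.

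MET, the receptor for hepatocyte growth factor, lies at chr7:116672196-116798377 (GRCh38, Entrez 4233). Its signal was 34291, 36467 and 32901 in the DMSO libraries and 19600.5, 20339 and 20813 in the erlotinib libraries. Each erlotinib library was well under the lowest DMSO library. The mean fell by 41.4%, from 34553 ± 1797 to 20251 ± 611 (SD, n = 3), with a log2 fold change of -0.77 (SE 0.06, 95% confidence interval -0.90 to -0.64, adjusted p = 9.2e-10, limma, Benjamini-Hochberg). A long noncoding gene, LINC01510, overlaps the start of MET, but its mean signal was 19.0 beside 27402 for MET. None of the other receptor genes overlaps an annotated gene that was measured.

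EGFR itself, the kinase that erlotinib blocks, had a signal of 77915, 82437 and 78583 in the DMSO libraries and of 42831, 43954 and 49829.9 in the erlotinib libraries. The fall of EGFR and that of MET were of similar size, -0.81 and -0.77 on the log2 scale. The ratio of MET to EGFR signal within a library was 0.440, 0.442 and 0.419 in DMSO and 0.458, 0.463 and 0.418 with erlotinib. The groups overlapped (exact permutation test, two-sided, p = 0.6, adjusted over 5 ratios to 0.6). The ratio differed by 0.04 on the log2 scale between the group means.

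HGF, the ligand of MET, was measured at 141, 216 and 176 in DMSO and at 228, 243 and 263 with erlotinib. All 3 erlotinib libraries were higher, though DMSO library 2 was close to them. HGF rose by 0.48 on the log2 scale (SE 0.16, adjusted p = 0.013, limma, Benjamini-Hochberg), and the call was lost without DMSO library 1 (adjusted p = 0.0788) and without erlotinib library 6 (adjusted p = 0.0598). HPN and ST14 encode proteases that activate the HGF precursor, and SPINT1 and SPINT2 encode inhibitors of such proteases. SPINT1 rose from 2893 ± 272 to 6124 ± 147 (SD, n = 3; log2 fold change 1.09), whereas SPINT2 fell by 0.22 and ST14 by 0.20 on the log2 scale. HPN rose from 3.52 ± 2.52 to 35.3 ± 6.01 (log2 fold change 3.13), a gene that entered the test only through its erlotinib libraries. The falls of SPINT2 and ST14 were not called when each library was scaled to its total. PLXNB1, a plexin that can associate with MET at the membrane, rose from 281 ± 53.2 to 1615 ± 86.8, and CD44, which presents HGF to MET, fell by 0.33 on the log2 scale.

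The upstream sequences of MET and AXL, which fell, and of FGFR3 and ROS1, which rose, are shown so that the receptors that moved in opposite directions can be set side by side. Each is the 250 bases before the annotated start of the gene in the RefSeq annotation of GRCh38.p14, written 5′ to 3′ on the strand of the gene, with the GC box (GGGCGG, or CCGCCC on the other strand), the motif bound by SP1, in capitals. They lie at chr7:116671946-116672195 (plus strand), chr19:41218973-41219222 (plus), chr4:1793043-1793292 (plus) and chr6:117425943-117426192 (minus).
MET: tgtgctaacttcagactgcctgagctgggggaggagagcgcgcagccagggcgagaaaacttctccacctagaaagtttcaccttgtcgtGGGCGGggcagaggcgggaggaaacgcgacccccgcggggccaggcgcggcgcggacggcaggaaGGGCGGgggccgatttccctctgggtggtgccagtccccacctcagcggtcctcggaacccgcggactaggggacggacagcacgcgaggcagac
AXL: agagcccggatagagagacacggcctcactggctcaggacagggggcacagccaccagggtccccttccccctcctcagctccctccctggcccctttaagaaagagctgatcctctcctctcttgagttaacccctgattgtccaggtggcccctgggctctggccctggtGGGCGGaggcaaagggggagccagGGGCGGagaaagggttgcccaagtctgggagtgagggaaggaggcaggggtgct
FGFR3: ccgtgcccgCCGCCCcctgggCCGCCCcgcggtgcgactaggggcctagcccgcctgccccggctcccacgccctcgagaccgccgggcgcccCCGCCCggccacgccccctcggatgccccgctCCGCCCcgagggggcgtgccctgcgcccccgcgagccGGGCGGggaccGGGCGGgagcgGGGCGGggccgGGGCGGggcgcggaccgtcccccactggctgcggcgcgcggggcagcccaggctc
ROS1: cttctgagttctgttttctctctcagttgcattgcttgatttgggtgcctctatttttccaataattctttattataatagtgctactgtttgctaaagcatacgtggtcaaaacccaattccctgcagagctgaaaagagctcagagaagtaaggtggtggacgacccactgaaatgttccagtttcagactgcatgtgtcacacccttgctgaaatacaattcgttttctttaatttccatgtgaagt
The FGFR3 sequence was 86.8% G or C with 40 CpG dinucleotides and 8 GC boxes, and the ROS1 sequence was 40% G or C with 3 CpG dinucleotides and no GC box. MET and AXL had 2 GC boxes each, with 68.4% and 64.4% G or C and 24 and 4 CpG dinucleotides. FGFR4, which fell, had 79.6% G or C and 7 GC boxes, and TYRO3, which fell narrowly, had 80% and 3. MERTK, which was neither, had 78.8% and 4. Whether these features bear on the direction of change was not tested. Over 35116 promoters of the same length, the median was 58% G or C and 11 CpG dinucleotides, and 42.6% held a GC box. The letters searched on both strands for AP-1 (TGANTCA), TEAD (GGAATG), FOXO (GTAAACA) and the E-box CACGTG were in none of these 4 windows. A further annotated start of AXL, with its window at chr19:41226505-41226754, held the TEAD letters in 1 place, as did each of the FGFR2 windows at chr10:121596646-121596895 and chr10:121531315-121531564. The TYRO3 window before the gene start held the AP-1 letters, and a further FGFR4 window at chr5:177089300-177089549 held the E-box. They were found in 6.57%, 11.9%, 2.98% and 6.34% of all promoters, and no match says only that the letters are not in this window. Such a sequence was at hand for 9 of the 10 receptors, all but FGFR1.

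AXL, MERTK and TYRO3 form the TAM family, which clears apoptotic cells. Its bridging ligands are GAS6 and PROS1, and the receptors differ in which of them they bind. AXL (chr19:41219223-41261766, Entrez 558) had a signal of 399, 310.2 and 339 in DMSO and of 168, 116 and 92.7 with erlotinib. The groups were far apart, and the erlotinib libraries spread more on a ratio scale than the DMSO libraries. AXL fell by 64.1%, from 349.6 ± 45.5 to 125 ± 38.6 (SD, n = 3), with a log2 fold change of -1.51 (SE 0.18, 95% confidence interval -1.89 to -1.12, adjusted p = 3.3e-07, limma, Benjamini-Hochberg).

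MERTK (chr2:111898607-112029561, Entrez 10461), the family member best known from phagocytes, had a signal of 438, 546 and 423 in DMSO and of 434, 467 and 532 with erlotinib. The groups overlapped fully. Its log2 fold change was 0.03, and the 95% confidence interval of -0.22 to 0.28 bounds a change in either direction (adjusted p = 0.829, limma, Benjamini-Hochberg). Within each library, the ratio of AXL to MERTK was 0.912, 0.568 and 0.803 in DMSO and 0.387, 0.248 and 0.174 with erlotinib. It was lower in every erlotinib library, by 2.92-fold between the geometric means (exact permutation test, two-sided, p = 0.1, the smallest that 3 against 3 libraries allow, adjusted over 5 ratios to 0.125).

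TYRO3 (chr15:41559212-41583589, Entrez 7301), which shares the ligand GAS6 with AXL, had a signal of 280.2, 215 and 247 in DMSO and of 197, 197 and 188 with erlotinib. The erlotinib libraries lay just under the lowest DMSO library. The log2 fold change of -0.34 (SE 0.15) passed narrowly (adjusted p = 0.0423, limma, Benjamini-Hochberg), and the call was lost in 11 of 17 alternative settings, with an adjusted p of 0.0567 in DESeq2 and 0.172 without DMSO library 1. Leaving out DMSO library 3 or erlotinib library 4, 5 or 6 ended the call as well (adjusted p = 0.0785, 0.0777, 0.0776 and 0.108, limma, Benjamini-Hochberg).

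Both TAM ligands were expressed. PROS1, protein S, had a signal of 467, 685 and 563 in DMSO and of 1672, 1531 and 1584 with erlotinib. All erlotinib libraries exceeded all DMSO libraries, and PROS1 rose 2.79-fold (log2 fold change 1.50, SE 0.11, adjusted p = 1.3e-10, limma, Benjamini-Hochberg). GAS6, which binds AXL, went from 165 ± 11.8 to 141 ± 13.1 (log2 fold change -0.23, adjusted p = 0.212, limma, Benjamini-Hochberg), with overlapping groups. The ratio of PROS1 to GAS6 was between 2.84 and 4.45 in the DMSO libraries and between 9.92 and 13.0 in the erlotinib libraries (exact permutation test, two-sided, p = 0.1, adjusted 0.125). ADAM10 and ADAM17, proteases that release the ectodomains of AXL, MERTK and MET, were at 3931 ± 356 and 1783 ± 51.9 in DMSO and at 4309.5 ± 110.1 and 1982 ± 97.02 with erlotinib, and neither passed the test (adjusted p = 0.094 and 0.071, limma, Benjamini-Hochberg). TIMP2, an inhibitor of metalloproteinases, rose from 3098 ± 18.2 to 8035 ± 279 (log2 fold change 1.37).

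The 4 FGF receptors share a ligand family and differ in which FGFs they bind best. FGFR1 (chr8:38411143-38468635, Entrez 2260) had a signal of 235, 251 and 226 in DMSO and of 102, 99.99 and 56.2 with erlotinib. Erlotinib library 6 was the lowest, and the groups were far apart. FGFR1 fell by 63.8%, from 237 ± 12.6 to 85.9 ± 25.8 (SD, n = 3), with a log2 fold change of -1.50 (SE 0.21, 95% confidence interval -1.93 to -1.07, adjusted p = 1.6e-06, limma, Benjamini-Hochberg).

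FGFR3 (chr4:1793293-1808867, Entrez 2261), which is often altered in bladder cancer, moved the other way. Its signal was 161, 155 and 153 in DMSO and 292, 315 and 317 with erlotinib. Replicates were tight in both groups, and FGFR3 rose 1.97-fold (log2 fold change 0.97, SE 0.14, 95% confidence interval 0.68 to 1.26, adjusted p = 2.5e-06, limma, Benjamini-Hochberg). Within each library, the ratio of FGFR1 to FGFR3 was 1.46, 1.62 and 1.48 in DMSO and 0.348, 0.318 and 0.177 with erlotinib. The geometric mean of this ratio was 5.62-fold lower with erlotinib (exact permutation test, two-sided, p = 0.1, the smallest possible here, adjusted 0.125). Since FGFR1 and FGFR3 each separated the groups, in opposite directions, this p-value was fixed in advance and adds no support.

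FGFR4 (chr5:177086915-177098144, Entrez 2264), the receptor for FGF19 in liver, had a signal of 413, 418 and 474 in DMSO and of 363, 316 and 287 with erlotinib. The groups did not overlap, though the gap between them was small, and such separation in either direction was found for 73.6% of all tested genes. FGFR4 fell by 26.0% (log2 fold change -0.44, SE 0.12, adjusted p = 0.0034, limma, Benjamini-Hochberg), and this call was lost when each library was scaled to its total (adjusted p = 0.0743). FGFR2 (chr10:121478330-121598458, Entrez 2263), which carries epithelial FGF7 and FGF10 signals in the lung, was nearly silent, with 5, 6 and 0 reads in DMSO and 13, 14 and 4 reads with erlotinib. The groups overlapped, and its mean signal was under the filter. Fitted without a filter, its log2 fold change was 1.46 (95% confidence interval -0.12 to 3.05, adjusted p = 0.115, limma, Benjamini-Hochberg).

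**Figure D2:**
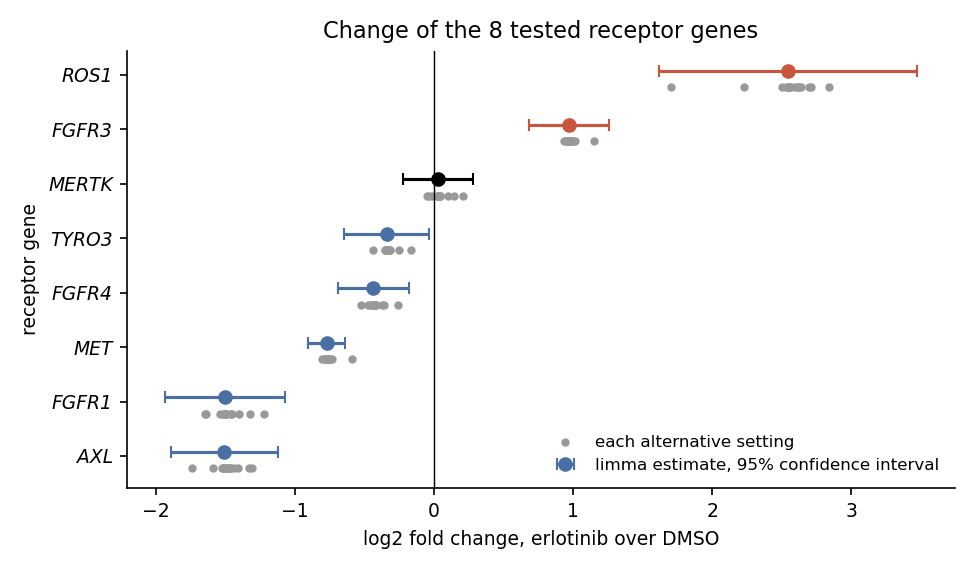
Log2 fold change of the 8 tested receptor genes, erlotinib over DMSO, with 95% confidence intervals from limma (large points; 3 libraries per group) and the estimate under each alternative setting (small grey points). Blue marks genes called lower, red genes called higher and black neither. Grey points lie on both sides of 0 for MERTK alone. The points do not show the calls, which were lost in 11 settings for TYRO3 and in 1 for FGFR4.

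Of the FGF genes, 4 were abundant enough to test. FGF2, which signals through FGFR1 and other FGF receptors, had a signal of 1437, 1664 and 1492 in DMSO and of 594, 559 and 569 with erlotinib. It fell by 62.5% (log2 fold change -1.41, SE 0.09, adjusted p = 9.3e-12, limma, Benjamini-Hochberg), without overlap. FGF1, which binds all FGF receptors, fell by 72.5%, from 104 ± 31.6 to 28.6 ± 7.26 (log2 fold change -1.82, SE 0.29). FGF9, a ligand that favors FGFR3, had a signal of 46.5, 23.2 and 32.1 in DMSO and of 353, 355 and 302 with erlotinib. The smallest erlotinib value was several times the largest DMSO value, and the log2 fold change was 3.32 (SE 0.23, adjusted p = 4.3e-11, limma, Benjamini-Hochberg). FGF5 was at 41.8 ± 15.0 and 45.8 ± 18.0 and did not pass (adjusted p = 0.772, limma, Benjamini-Hochberg).

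FGF9 stood at 0.0324, 0.0140 and 0.0215 of the FGF2 signal in the DMSO libraries and at 0.593, 0.635 and 0.531 of it in the erlotinib libraries. The geometric mean of this ratio was 27.4-fold higher with erlotinib (exact permutation test, two-sided, p = 0.1, adjusted 0.125). FGF9 and FGF2 each separated the groups, in opposite directions, so this p-value too was fixed in advance. FGFRL1, an FGF receptor without a kinase domain, rose from 823 ± 109 to 1454 ± 55.3 (log2 fold change 0.83). KL and KLB, the klotho co-receptors of the endocrine FGFs, were too low to test.

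RET (chr10:43077069-43130351, Entrez 5979), the receptor for the GDNF family, was not detected beyond a single read in DMSO library 1. With no reads in the other 5 libraries, a count of 0 allows up to 3 reads, or 0.122 to 0.145 CPM depending on the library, and covers counting error only. None of the GFRA1 to GFRA4 and GFRAL co-receptors had enough reads to test. Of the RET ligands, GDF15, a stress-induced factor that acts through GFRAL and RET, rose from 153 ± 29.2 to 411 ± 13.0 (log2 fold change 1.44, adjusted p = 2.7e-08, limma, Benjamini-Hochberg). NRTN was at 17.8 ± 4.70 and 27.7 ± 4.30 and ARTN at 36.5 ± 8.33 and 29.0 ± 9.19, and neither passed the test (adjusted p = 0.165 and 0.398, limma, Benjamini-Hochberg).

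ROS1 (chr6:117287353-117425942, Entrez 6098), a receptor for NELL-type ligands, was covered by 10, 8 and 4 reads with DMSO and by 47, 50 and 51 reads with erlotinib. In signal, these were 11.3, 7.43 and 4.28 against 43.4, 49.5 and 47.7. All erlotinib libraries were several times higher than the highest DMSO library, and the mean rose from 7.68 ± 3.54 to 46.9 ± 3.15 (log2 fold change 2.54, SE 0.45, 95% confidence interval 1.62 to 3.47, adjusted p = 3.4e-05, limma, Benjamini-Hochberg). ROS1 entered this test only through its erlotinib libraries, since its DMSO mean lay under 10. The p-value and interval are therefore not independent support for the rise. The size of the change depended on the pseudocount, with a log2 fold change of 1.70 at a pseudocount of 10. ROS1 could not be tested where at least 10 reads were required in every library.

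Levels of different genes were compared per kilobase of exon. In DMSO, MET stood at 4783 ± 249 signal per kilobase, 42.2 times the next gene, MERTK, at 113 ± 16.3. Then came FGFR4 at 90.4 ± 7.07, AXL at 68.1 ± 8.85, FGFR3 at 32.3 ± 0.861, TYRO3 at 23.0 ± 3.01 and FGFR1 at 13.8 ± 0.733. ROS1, FGFR2 and RET were all under 1, and FGFR2 and RET overlapped. Over the length of the longest transcript in place of all exons, FGFR4 (141) stood before MERTK (123) with overlapping libraries, and FGFR1 (38.1) and FGFR3 (36.3), which also overlapped, stood before TYRO3 (30.8).

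With erlotinib, MET (2803 ± 84.6) and MERTK (116 ± 12.05) kept their places over all exons. FGFR3 at 63.5 ± 2.92 then overlapped FGFR4 at 66.9 ± 7.90. AXL, at 24.4 ± 7.51, overlapped TYRO3 at 18.0 ± 0.488, and ROS1 at 5.27 ± 0.355 overlapped FGFR1 at 4.99 ± 1.50. Over the longest transcript, FGFR4 (104) stood above FGFR3 (71.5) and FGFR1 (13.8) above ROS1 (5.55), both without overlap, so these neighbors depended on the length used. MERTK (125) stood before FGFR4 over that length, with overlapping libraries, though behind it in DMSO. Among 58 receptor tyrosine kinase genes, of which 31 reached a mean signal of 10, MET and EGFR (4996 ± 153 in DMSO, 2857 ± 236 with erlotinib) were the most abundant per kilobase, and over all exons their libraries overlapped in both groups. Per kilobase, MET was at 2713, 2815 and 2881 and EGFR at 2687, 2757 and 3126 in the erlotinib libraries. MET made up 33.4% of their summed signal per kilobase in DMSO and 28.3% with erlotinib, and EGFR 34.8% and 28.8%. The near equality of the pair depended on the length used: over the longest transcript, EGFR stood at 8041 in DMSO and 4598 with erlotinib and MET at 5025 and 2945, without overlap. These ranks and shares take DDR1 and EPHB6 as 0, though both have a copy among the alternate contigs and were listed without reads.

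**Figure D3:**
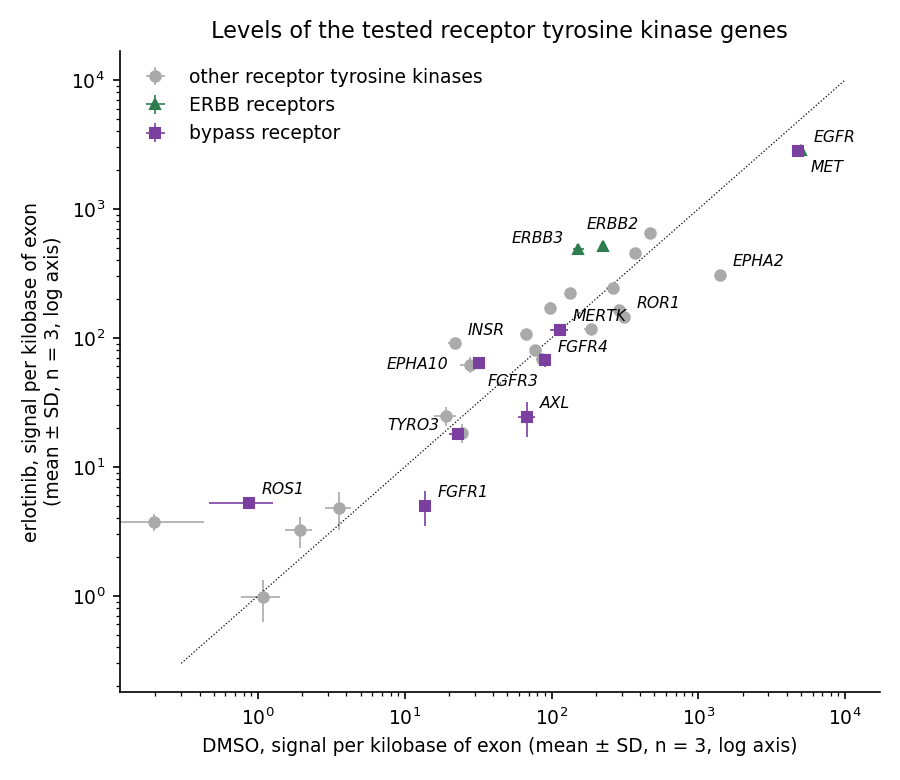
Signal per kilobase of exon in DMSO (x axis) and with erlotinib (y axis) for the receptor tyrosine kinase genes whose mean signal reached 10, as mean and SD of 3 libraries on log axes, with the line of equal levels dotted. MET lies beside EGFR at the upper right under the line, FGFR3 and ROS1 lie above it, and AXL and FGFR1 lie below it; the bar of the leftmost point (EPHA7) leaves the axis because its SD exceeds its mean.

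**Figure D4:**
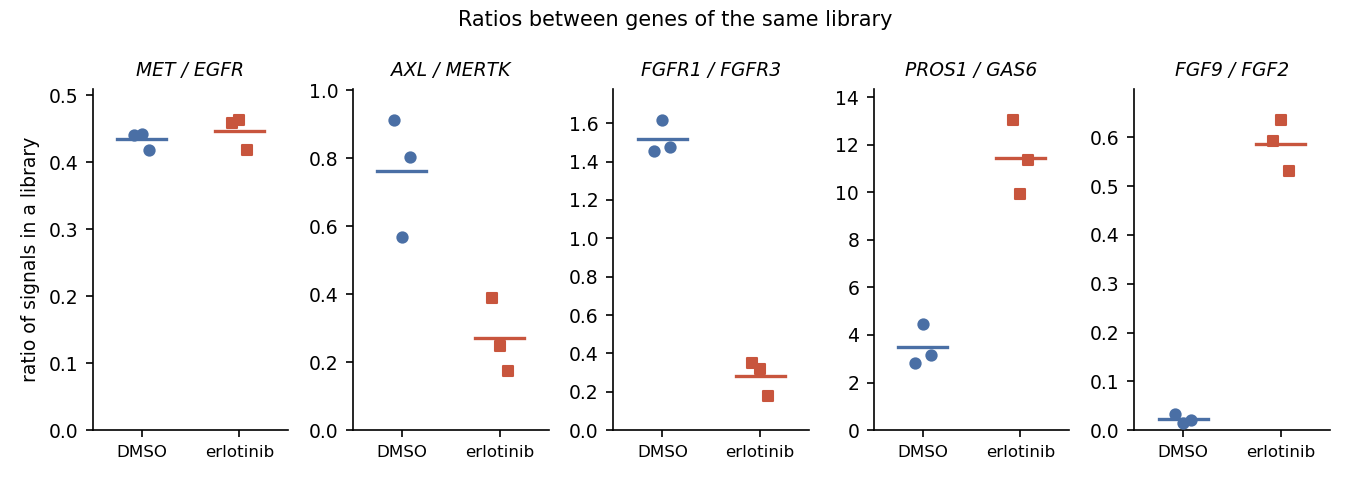
Ratio of the signals of 2 genes in each DMSO library (circles) and each erlotinib library (squares), with lines at the group means and every axis starting at 0. MET over EGFR overlaps between the groups, and the other 4 ratios do not.

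The other 3 ERBB receptors were read beside the bypass receptors. ERBB2, the preferred partner of the other ERBB receptors, rose from 2312 ± 81.6 to 5337 ± 7.06 (log2 fold change 1.21), and ERBB3, the kinase-impaired receptor that recruits PI3K, rose from 1783 ± 152 to 5723 ± 176 (log2 fold change 1.68). ERBB4 had 0, 2 and 0 reads in DMSO and 8, 10 and 12 with erlotinib and was not tested. Among 44 further receptor tyrosine kinases, 20 were tested, of which 5 were lower, 8 were higher and 7 were neither (median log2 fold change 0.34), beside 35.4% lower and 35.3% higher of all tested genes. The 8 include EPHA7, which entered the test only through its erlotinib libraries. EPHA2, an ephrin receptor common in epithelial tumors, fell from 5774 ± 247 to 1277 ± 49.5 (log2 fold change -2.18), and ROR1, a WNT5A receptor, fell from 2098 ± 68.1 to 981 ± 9.56 (-1.10). INSR, the insulin receptor, rose from 237 ± 21.8 to 987 ± 51.9 (2.06), and EPHA10, an ephrin receptor without kinase activity, rose from 228 ± 33.2 to 506 ± 72.2 (1.15).

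Of 27 ligands of the bypass receptors, 10 were tested, with 2 lower, 4 higher and 4 neither (median log2 fold change 0.30), and 9 had no reads at all. Of 15 co-receptors, 8 were tested, with 2 lower, 5 higher and 1 neither (median 0.46). Only 1 was lower in 13 of the 17 alternative settings. Of 14 genes for ligand activation and receptor shedding, 12 were tested, with 2 lower, 6 higher and 4 neither (median 0.43). The 2 lower calls were lost when each library was scaled to its total. These counts are read beside the 35.4% lower and 35.3% higher of all tested genes.

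Of 29 adaptors and effectors, 28 were tested, with 13 lower, 11 higher and 4 neither, beside the same shares of all tested genes, and a median log2 fold change of -0.09. With each library scaled to its total, 8 were lower and 12 higher, beside 3955 lower and 6156 higher of all tested genes. GAB2, a docking protein that carries PI3K and SHP2, rose from 377 ± 25.2 to 1275 ± 68.0 (log2 fold change 1.76). MAPK3, which encodes ERK1, rose from 484 ± 85.0 to 1042 ± 54.7 (1.12), and FRS3, an FGF receptor adaptor, rose from 76.3 ± 16.3 to 158 ± 27.0 (1.05). None of the adaptors that were lower fell by as much as 1 log2 unit. MAP2K1, the kinase upstream of ERK, fell most, by 0.90 on the log2 scale, and PTPN11, which encodes SHP2, fell by 0.63; they were named after their values were seen.

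Of 20 negative regulators, 19 were tested, with 10 lower, 5 higher and 4 neither (median log2 fold change -0.25), beside 35.4% lower and 35.3% higher of all tested genes. DUSP6, the phosphatase of ERK that ERK activity induces, had a signal of 1387, 1418 and 1368 in DMSO and of 67.4, 63.4 and 73.9 with erlotinib. It fell by 95.1% (log2 fold change -4.33, SE 0.12, adjusted p = 5.1e-17, limma, Benjamini-Hochberg), with tight replicates in both groups. SPRY4, which limits FGF receptor and RAS signaling, fell from 351 ± 10.1 to 22.3 ± 7.05 (-3.95). SPRED2 and SPRED1, which recruit neurofibromin to shut off RAS, fell by 2.35 and 1.35 on the log2 scale. CBLB, a ubiquitin ligase for activated receptors, moved in the other direction, from 159 ± 17.2 to 503 ± 48.8 (1.66).

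**Figure D5:**
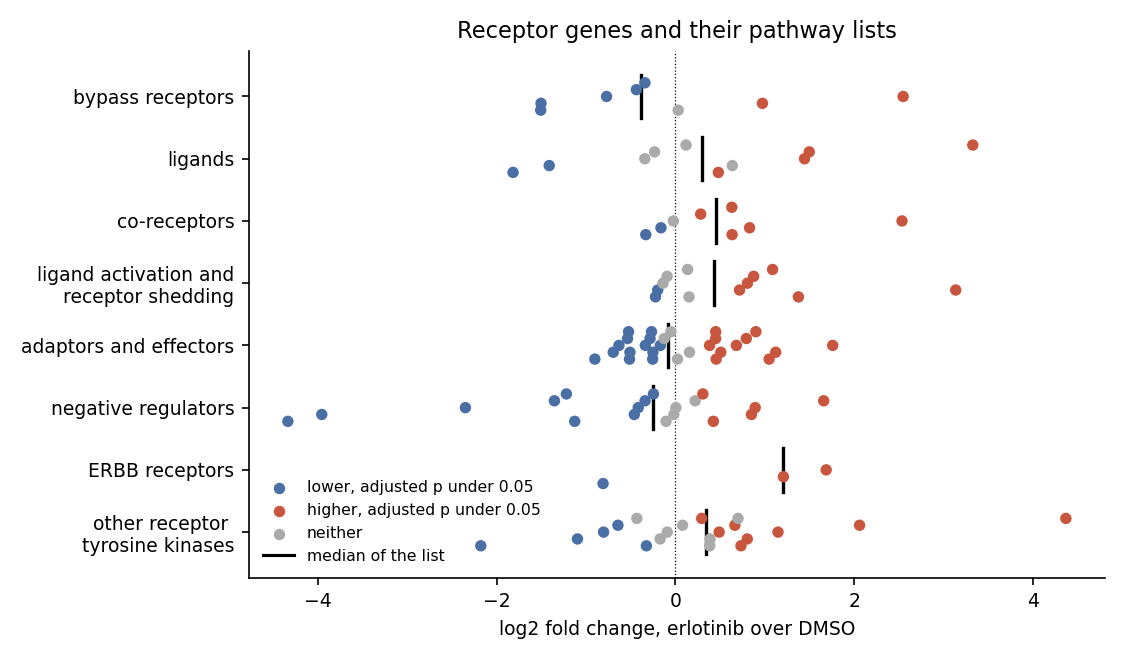
Log2 fold change, erlotinib over DMSO, of every tested gene in the bypass receptors and 7 other lists (3 libraries per group), with a bar at the median of each list. Blue points are lower and red points higher at an adjusted p under 0.05 (limma), and grey points neither; the negative regulators DUSP6 and SPRY4 lie farthest to the left and EPHA7, which entered the test only through its erlotinib libraries, farthest to the right.

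Markers of other cell types were read as a check on the line. The epithelial markers EPCAM (9852 ± 235 and 9485 ± 281) and CDH1 (27824 ± 967 and 30609 ± 633) were abundant, and neither passed the test, while KRT7, KRT8, KRT18 and KRT19 were lower and the lung factors NKX2-1 (log2 fold change 1.53) and NAPSA (1.92) were higher. Of 9 such markers, 8 were tested, with 4 lower, 2 higher and 2 neither, beside 35.4% lower and 35.3% higher of all tested genes, and their summed signal was 290730, 258520 and 281165 in DMSO and 198686, 202161 and 204123 with erlotinib, with KRT7 the most abundant.

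Of 7 fibroblast markers, COL1A1 alone was tested and rose by 1.47 on the log2 scale. The summed fibroblast markers were 73.7, 75.2 and 109 in DMSO and 260.2, 223 and 215 with erlotinib, and THY1 had no reads. Of 7 immune markers, only CD68, a lysosomal protein also made by other cells, passed the filter, and it rose by 0.23 on the log2 scale, with summed markers of 2787, 2795 and 3172 in DMSO and of 3241, 3538 and 3473 with erlotinib. PTPRC, the leukocyte marker, did not exceed 5.62 in any library, and HLA-DRA had no reads, though its alternate-contig copy could take them. Of 5 endothelial markers, PECAM1 and VWF were tested. VWF was the most abundant over both groups together, though PECAM1 stood above it in DMSO. VWF rose from 3.94 ± 3.31 to 27.4 ± 6.93 and reached the test only through its erlotinib libraries. PECAM1 was at 15.7 ± 3.29 and 10.4 ± 2.20 (log2 fold change -0.55, adjusted p = 0.348, limma, Benjamini-Hochberg), while the summed markers were 34.0, 17.6 and 22.5 in DMSO and 58.1, 49.5 and 45.9 with erlotinib. The part of these markers in the receptor changes was not tested.

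For the receptors other than TYRO3 whose mean signal reached 100, the genes with the most similar pattern over the 6 libraries were sought by the Euclidean distance of their centered log2 values. For MET, OPA1, MCFD2 and LRRFIP1 were closest (distances 0.0575, 0.0680 and 0.0691), and 2475 tested genes lay within a distance of 0.5. For AXL, SNORD28, LOC101929128 and FAM83A-AS1 were closest (0.247, 0.312 and 0.363), with 26 genes within that distance. For FGFR1 they were THSD1, ZIC5 and AKAP12 (0.320, 0.333 and 0.335), with 22 genes within it. AXL and FGFR1 had far fewer genes within that distance than MET, but their mean signals were 238 and 162 beside 27402. The distance was not scaled for noise, which is larger at low signal, so these counts do not rank the receptors.

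For FGFR3, APOL1, DUSP16 and OS9 were closest, with 1212 genes within a distance of 0.5. For FGFR4 they were UROD, LRRC3 and PROCR, and for MERTK they were ANKMY2, ALG10B and PCNX1, with 2531 and 2416 genes within that distance. All libraries here share one contrast, so the size of the change enters every distance.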

How the data were processed

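RNA from HCC827 cells was sequenced in 6 libraries, 3 treated with DMSO and 3 with erlotinib. The authors mapped reads to GRCh38 (Bowtie2 2.3.4), an aligner that does not split reads across introns, and counted them per gene (featureCounts 1.6.3), with DESeq2 1.18.1 in the submitters' processing notes. The strand that was counted is not given in the sources used here. The signal values deposited by the authors were found to be whole reads divided by 1 size factor per library, between 0.882 and 1.08: every value (100%) was a whole number of its library's steps (tolerance 0.01). The labels do not say whether the libraries of a group came from separate cultures, so p-values measure the spread between these libraries, which may be technical. Libraries of a group differed by more than sampling noise (4.05 to 22.9 chi-square units per degree of freedom), and all 6 columns of values were used, with 0 left out. Total reads were 20858083, 24641819 and 21172884 with DMSO and 21944007, 20760204 and 21678395 with erlotinib.

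Since the table holds signal and not whole counts, limma 3.58.1 (trend, two-sided) was used on log2(signal + 1), a scale that understates the change of low genes. Tests covered 14215 genes, those whose mean signal reached 10. The alternatives were DESeq2 1.42.0, edgeR 4.0.16 and limma-voom on the recovered reads, other scalings, pseudocounts, filters and thresholds, and each library left out. The limma step was tested on simulated data. Ratios within a library were compared by exact permutation tests. The pairs of genes were not chosen independently of their values. Lengths came from GENCODE matched by symbol, and positions and promoters from RefSeq. Copies of the 188 listed genes were sought with minimap2 2.31-r1302 on 261 alternate contigs (identity of at least 97% over at least 90% of the transcript). Of these genes, 5 had a copy (CRK, DDR1, EPHB6, HLA-DRA and HRAS), none of them a bypass receptor. No bypass receptor shared more than 4.05% of its transcript with another annotated gene, whereas VWF shared 32.6% with its pseudogene VWFP1, NKX2-1 37.9% with SFTA3, SPINT2 31.5% and DUSP6 23.8% with overlapping or like transcripts and CD68 95.0% with 1 such transcript, so that their counts are less certain.

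The members and lists were chosen with earlier results of these data known. Named were all members and ERBB receptors, ligands whose mean signal reached 10, and, per list, up to 5 genes past the threshold that changed by at least 1 log2 unit with a mean signal of at least 50. Other genes named were chosen after their values were seen. Also named were the 3 genes closest in pattern to each member with a mean signal of at least 100. Those of TYRO3 are not reported here. The software was R 4.3.3, Python 3.11.15, SciPy 1.17.1 and matplotlib 3.10.9.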

Additional observations from a re-analysis of the deposited data

How the results depend on the processing

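MET, AXL, FGFR1 and FGFR3 kept their direction and their call in all 17 alternatives. ROS1 was called higher in the 16 that could test it, but its DMSO mean lay under the filter on signal. Its repeated call is therefore no sign of stability. Scaling to the total shifted all tested genes from a median log2 fold change of 0.02 to 0.19, left 3 receptor genes lower (TYRO3 and FGFR4 lost, adjusted p = 0.32 and 0.0743 in limma), 0 genes lower in ligand activation and shedding and 8 among the adaptors; all tested genes then split into 3955 lower and 6156 higher. A minimum of 10 reads in every library left 1 receptor gene higher, since ROS1 could not be tested. The co-receptors lower numbered 1 under DESeq2, edgeR with TMM factors, limma-voom, scaling to the total, limma with TMM factors, no filter, an adjusted p under 0.01 and no variance trend, where SDC1 (log2 fold change -0.16) was the gene lost. At an adjusted p under 0.01, ligand activation and shedding had 1 gene lower and the negative regulators had 3 higher, and without the variance trend the former also had 1.

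With each library left out, the receptor genes lower were 4 to 5 and those higher 2, the co-receptors lower 1 to 2, and the genes lower in ligand activation and shedding 1 to 2. The log2 fold change of MERTK ranged from -0.05 to 0.15 and turned negative without DMSO library 1 (-0.01), DMSO library 3 (-0.04) or erlotinib library 6 (-0.049), at an adjusted p of at least 0.768 (limma). TYRO3 had an adjusted p of 0.0107 to 0.172 (limma) when a library was left out, 0.0567 in DESeq2, 0.0627 in limma-voom, 0.0529 in limma with TMM factors and 0.0636 without the filter. Over the longest transcript, the signal per kilobase in DMSO became 30.8 for TYRO3, 38.1 for FGFR1, 36.3 for FGFR3 and 141 for FGFR4. The other counts of called genes that were run under the alternatives stayed within 1.5 times of those reported. The counts of the cell type markers were not run under them. The cause of these shifts was not tested. No paired analysis was possible because the erlotinib columns of the table are numbered 4 to 6, while the sample titles number both groups 1 to 3, and which column belongs to which title is not given in the sources used here. Without the filter FGFR2 did not pass (adjusted p = 0.115, limma), and RET had a single read in all.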
